A study of Mus musculus with 12 samples.

Results

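The 45 genes described here encode the heat shock chaperones of the cytosol and mitochondria, the chaperones and folding enzymes of the endoplasmic reticulum (ER), and the sensors and Atf4-branch genes of the unfolded protein response. They were chosen by symbol from a list of names, out of 57490 genes in the count table, and were divided into 17 cytosolic and mitochondrial chaperones (with the transcription factor Hsf1), 15 ER chaperones and folding enzymes, and 13 stress sensors and Atf4-branch genes. The 45 symbols matched 46 entries of the table, because Ddit3 had a second entry with 0 counts in all 12 mice. All 45 members passed the filter on low counts and were tested among 17431 genes.

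Poly(A) RNA of the kidney was sequenced in 12 male mice, with 1 library per mouse and 4 mice in each of 3 groups. Ctrl mice were db/m on the BKS background and Model mice were db/db, homozygous for the Leprdb mutation (BKS.Cg-Dock7m +/+ Leprdb/JNju), a strain that becomes obese and diabetic. YHY mice were db/db and were given a water extract of the herbal Yiqi Huoxue Yangyin Decoction (YHY, 6.24 g/mL) by gavage once daily for 4 weeks, while Ctrl and Model mice received purified water. All mice were bought at 8 weeks of age, db/db mice were kept if their random blood glucose was at least 16.7 mmol/L and control mice if it was below 11.1 mmol/L, and the age given for the samples was 13 weeks. Which of the paper's dose groups the sequenced YHY mice came from is not stated. The labels call the control genotype wild-type, whereas the growth protocol describes heterozygote db/+ mice. The labels also give whole kidney tissue, whereas the design text gives renal cortex. Total counts per library ran from 24415658 in Model 4 to 33276634 in Ctrl 1. The fewest counts of a member in any mouse were 6 for Chac1 and 8 for Trib3, and every other member had at least 37 counts in each mouse.

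Misfolded protein in the cytosol activates the transcription factor Hsf1, which binds heat shock elements in DNA and raises the transcription of chaperones such as Hspa1a, Hspa1b, Hsph1 and Hsp90aa1. In the ER, unfolded protein is sensed by Ern1, which splices Xbp1 mRNA, by Atf6, which is cleaved to release a transcription factor, and by Eif2ak3, whose kinase activity lowers translation in general but raises that of Atf4. Kidney tubule cells handle large amounts of secreted, membrane and reabsorbed protein, and both responses are well known from work on tubular and glomerular injury.

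Lepr, the gene that carries the db mutation, was checked before the members. Its level was 10.7, 4.84, 9.97 and 11.7 CPM (counts relative to the library's total, as scaled by the TMM method) in Ctrl mice 1 to 4, 8.27, 6.62, 2.79 and 7.78 CPM in Model mice 1 to 4, and 16.6, 7.13, 11.9 and 4.34 CPM in YHY mice 1 to 4. The groups overlapped, with a log2 fold change from Ctrl to Model of -0.54 ± 0.39 (SE, adjusted P 0.292 by edgeR). A count per gene cannot see this mutation, which alters the splicing of the long isoform.

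The libraries stood apart in the share of counts from the 37 genes of the mitochondrial genome. It came to 18.6%, 22.7%, 18.4% and 18.5% in Ctrl mice 1 to 4, 41.2%, 58.9%, 55.3% and 53.4% in Model mice 1 to 4, and 53.8%, 64.6%, 54.6% and 54.2% in YHY mice 1 to 4, with 95% Wilson intervals no wider than 0.0396 points for counting error. Ctrl mice did not overlap with the db/db mice, and Model 1 had the lowest share of the 8 db/db mice. The part of this share in the results on the members was not tested. In Model against Ctrl, the members called were 2 higher and 31 lower with those transcripts removed before TMM scaling. Under library size without them, 4 members were higher and 29 lower. Both settings tested 16952 genes. With TMM, 3380 of all these genes were called higher and 3276 lower, and under library size 5584 and 1597. In bulk tissue, fewer cells of a type and less RNA per cell cannot be told apart.

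Promoter sequences are given first because the 3 sub-lists of members differ in the motifs matched around the gene's start. Whether the motifs have a part in the expression changes was not tested. Of the 45 members, 38 had a RefSeq window (build GRCm38.p6) of 250 bases before to 50 bases after the gene's start, in 44 windows of 300 bases, and the other members were Atf6, Hsf1, Hsp90aa1, Hsp90ab1, Hspa8, Hyou1 and Manf. Both strands were searched for 4 motifs and for a shorter form of the heat shock element. A match is a description of letters, not a shown binding site. The ER stress element was written as CCAAT, then 9 bases of any kind, then CCACG. It was in 39 of 32851 mouse windows (0.119%) and in 7 of the 13 ER members with a window, namely Calr, Canx, Creld2, Dnajc3, Hsp90b1, Hspa5 and Pdia6. None of the windows of the other 2 sub-lists held it. Creld2, which holds it, was the 1 ER member not called lower in Model against Ctrl (log2 fold change -0.55, edgeR adjusted P 0.0928). Pdia3, Pdia4, P4hb, Dnajb9, Dnajb11 and Sdf2l1 have a window without the element and were all called lower. The windows of 3 ER chaperones and folding enzymes are printed 5′ to 3′ on the gene's strand, with the element in capitals, on either strand: Hspa5 (chr2:34771840-34772139, + strand), Hsp90b1 (chr10:86705395-86705694, - strand) with 2 matches, and Pdia6 (chr12:17266339-17266638, + strand).
Hspa5: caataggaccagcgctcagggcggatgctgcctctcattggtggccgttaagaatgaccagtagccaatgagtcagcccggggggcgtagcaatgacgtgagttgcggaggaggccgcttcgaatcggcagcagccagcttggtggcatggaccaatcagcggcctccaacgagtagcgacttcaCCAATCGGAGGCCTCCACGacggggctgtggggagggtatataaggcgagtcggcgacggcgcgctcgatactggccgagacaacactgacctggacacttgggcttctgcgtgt
Hsp90b1: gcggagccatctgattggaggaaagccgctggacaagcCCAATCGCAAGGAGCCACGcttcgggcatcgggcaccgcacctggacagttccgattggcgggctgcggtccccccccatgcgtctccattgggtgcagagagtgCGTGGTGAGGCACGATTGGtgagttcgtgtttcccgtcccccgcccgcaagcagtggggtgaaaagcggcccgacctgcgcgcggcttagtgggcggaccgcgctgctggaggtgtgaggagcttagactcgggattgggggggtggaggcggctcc
Pdia6: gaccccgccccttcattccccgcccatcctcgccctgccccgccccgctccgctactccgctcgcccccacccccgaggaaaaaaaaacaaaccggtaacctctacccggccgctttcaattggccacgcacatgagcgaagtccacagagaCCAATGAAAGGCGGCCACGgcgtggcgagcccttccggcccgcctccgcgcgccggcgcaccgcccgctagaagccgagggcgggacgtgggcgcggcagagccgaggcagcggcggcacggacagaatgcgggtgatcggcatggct
In Hspa5 the element lay 65 to 47 bases before the start, and in Pdia6 98 to 80 bases before it.

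The heat shock element was written as 3 alternating GAA and TTC units, each separated by 2 bases of any kind. In either order of the units, which are each other's reverse complement, it was in 198 of the 32851 windows (0.603%) and in 3 of the 13 cytosolic and mitochondrial members with a window, Hspd1, Hspe1 and Hsph1. With 2 units only, which the longer form contains, it was in 15.1% of all windows and in 10 of those 13 members (Bag3, Dnaja1, Dnajb4, Hspa1a, Hspa1b, Hspb1, Hspb8, Hspd1, Hspe1 and Hsph1), in none of the 13 ER members, and in Asns and Eif2ak3 among the 12 sensors and Atf4-branch genes with a window. Printed here are windows of members whose expression changes are given with the results, with the 3-unit element in capitals for Hsph1 (chr5:149636266-149636565, - strand) and Hspe1 (chr1:55087898-55088197, + strand), which has 2 overlapping matches, and the 2-unit element in capitals for Hspa1b (chr17:34959189-34959488, - strand).
Hsph1: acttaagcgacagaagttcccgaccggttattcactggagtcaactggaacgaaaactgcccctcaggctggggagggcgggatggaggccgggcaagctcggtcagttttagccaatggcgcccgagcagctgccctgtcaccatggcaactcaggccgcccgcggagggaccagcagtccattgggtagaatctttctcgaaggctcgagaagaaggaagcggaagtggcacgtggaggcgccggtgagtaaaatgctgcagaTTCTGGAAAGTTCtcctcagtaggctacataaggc
Hspe1: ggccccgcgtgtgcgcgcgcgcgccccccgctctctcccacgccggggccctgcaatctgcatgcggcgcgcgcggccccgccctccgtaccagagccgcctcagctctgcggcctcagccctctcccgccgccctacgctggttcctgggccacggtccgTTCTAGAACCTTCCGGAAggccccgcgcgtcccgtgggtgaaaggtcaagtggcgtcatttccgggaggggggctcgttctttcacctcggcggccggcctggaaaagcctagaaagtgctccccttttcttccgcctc
Hspa1b: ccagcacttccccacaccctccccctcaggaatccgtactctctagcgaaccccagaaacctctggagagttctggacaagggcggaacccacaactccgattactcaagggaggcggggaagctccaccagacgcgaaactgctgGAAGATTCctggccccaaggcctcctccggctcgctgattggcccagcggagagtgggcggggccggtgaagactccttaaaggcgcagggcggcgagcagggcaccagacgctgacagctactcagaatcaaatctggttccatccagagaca
The Hspe1 window overlaps that of Hspd1 (chr1:55087883-55088182, - strand), and the Hspa1a window (chr17:34972107-34972406, - strand) was identical to that of Hspa1b at 296 of 300 positions. In Hsph1 the 3-unit match lay after the start of the gene, as did the 2-unit matches of Bag3 and Hspb8.

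The amino acid response element, read by Atf4 and its partners, was written as TGATG, 1 base of any kind, then AA. It was in 1304 of the 32851 windows (3.97%) and in 4 of the 12 sensors and Atf4-branch genes with a window, Asns, Chac1, Herpud1 and Trib3, and in none of the windows of the other 2 sub-lists. The unfolded protein response element, TGACG followed directly by TGG, was in 222 windows (0.676%) and in no member window, and its letters can overlap the CCACG of the ER stress element on the other strand. The windows of Asns (chr6:7693160-7693459, - strand) and Chac1 (chr2:119350992-119351291, + strand) are shown with the amino acid response element in capitals.
Asns: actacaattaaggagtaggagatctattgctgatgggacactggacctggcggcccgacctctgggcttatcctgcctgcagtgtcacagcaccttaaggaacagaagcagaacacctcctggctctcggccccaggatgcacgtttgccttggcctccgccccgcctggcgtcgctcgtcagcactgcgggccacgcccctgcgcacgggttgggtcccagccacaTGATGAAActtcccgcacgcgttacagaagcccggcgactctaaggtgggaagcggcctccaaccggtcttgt
Chac1: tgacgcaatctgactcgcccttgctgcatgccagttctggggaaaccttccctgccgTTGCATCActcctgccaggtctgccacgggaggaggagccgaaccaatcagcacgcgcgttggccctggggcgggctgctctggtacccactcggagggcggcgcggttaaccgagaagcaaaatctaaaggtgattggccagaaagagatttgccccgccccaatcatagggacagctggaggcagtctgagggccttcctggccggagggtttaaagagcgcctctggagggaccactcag
In Trib3 the amino acid response element lay after the start. In Asns it began 23 bases before the start and overlapped a 2-unit heat shock element that began 19 bases before it.

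Model against Ctrl addressed what differs in the kidney of the diabetic mice. Of the 45 members, 2 were called higher and 31 lower (edgeR, at an adjusted P under 0.05), where 19.6% of the 17431 genes tested were called higher and 18.5% lower. The CPM of all 4 Model mice lay above all 4 Ctrl mice for 2 members and below them for 31, against 19.9% and 20.3% of all genes. The median log2 fold change of the 45 members was -1.10, with a range of -3.92 to 1.31, and that of all genes tested was 0.04. By sub-list, 13 of 17 cytosolic and mitochondrial members were lower and 1 higher. Of the ER members, 14 of 15 were lower and 0 higher (0 higher also at an unadjusted P under 0.05 and by DESeq2). Of the sensors and Atf4-branch genes, 4 of 13 were lower and 1 higher. The medians of these 3 sub-lists were -1.10, -1.29 and -0.07. The last was 0.03 under upper-quartile scaling and 0.26 under library size without mitochondrial transcripts. The difference between the sub-lists was not tested. With 4 mice against 4, an exact two-sided permutation test cannot give a P under 0.0286, which is its value for every member whose groups did not overlap. Leaving out Ctrl 1, Ctrl 3, Ctrl 4, Model 2, Model 3 or Model 4 gave 1 member called higher in place of 2, and over all 12 single omissions the count of members called lower was 30 to 32.

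**Figure D1:**
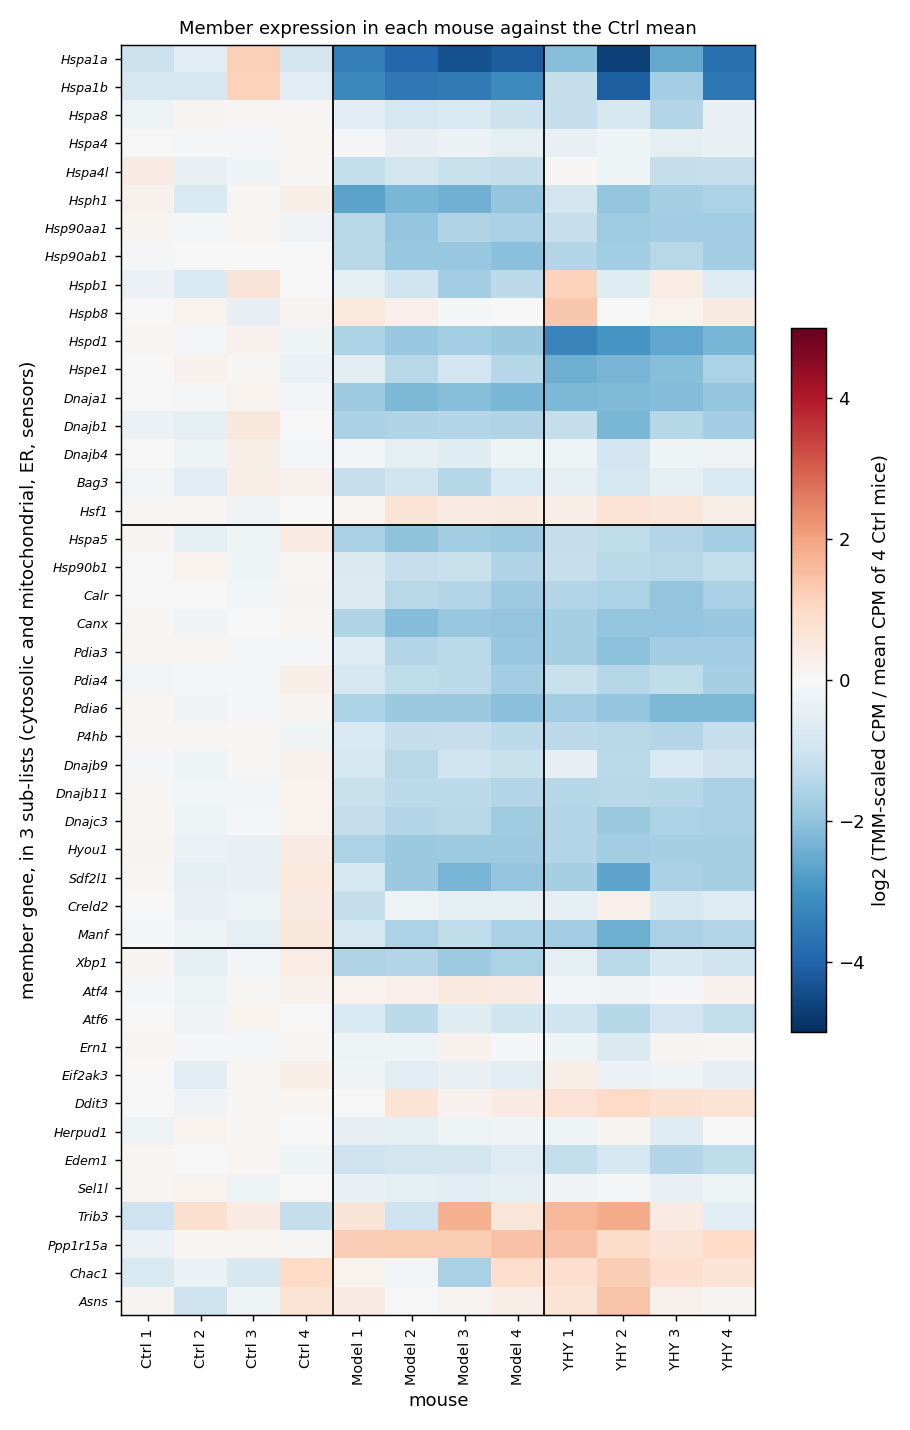
Log2 ratio of each member's TMM-scaled CPM to the mean of the 4 Ctrl mice (colour), for 45 members (vertical, in 3 sub-lists) in 12 mice (horizontal, in 3 groups). The ER block is blue (lower) in the Model and YHY mice, except Creld2 in YHY 2, with sub-list medians of -0.89 to -1.77 in the Model mice, and the sensors and Atf4-branch block is mixed.

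How the counts were scaled moved all genes together in Model against Ctrl. The median log2 fold change of all genes was 0.04 under TMM, 0.03 with DESeq2 size factors, 0.14 under upper-quartile scaling, -0.39 under library size alone and 0.37 under library size without mitochondrial transcripts, a setting chosen after seeing the data. Relative to that median, the members' median was -1.13 under TMM, -1.13 with DESeq2, -1.14 under upper-quartile scaling, -1.11 under library size alone and -1.14 under library size without mitochondrial transcripts, values that a scaling leaves nearly fixed because it shifts all genes alike. Of all genes called in Model against Ctrl, 51.5% were higher under TMM, 21.4% under library size alone and 77.8% under library size without mitochondrial transcripts, and the members called were 2 higher and 31 lower, 1 higher and 36 lower, and 4 higher and 29 lower in the same order. In YHY against Model, 42.5% of the genes called were higher under TMM and 64.6% under library size without mitochondrial transcripts. In YHY against Ctrl these shares were 51.9% under TMM, 28.4% under library size alone and 77.7% under library size without mitochondrial transcripts.

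**Figure D2:**
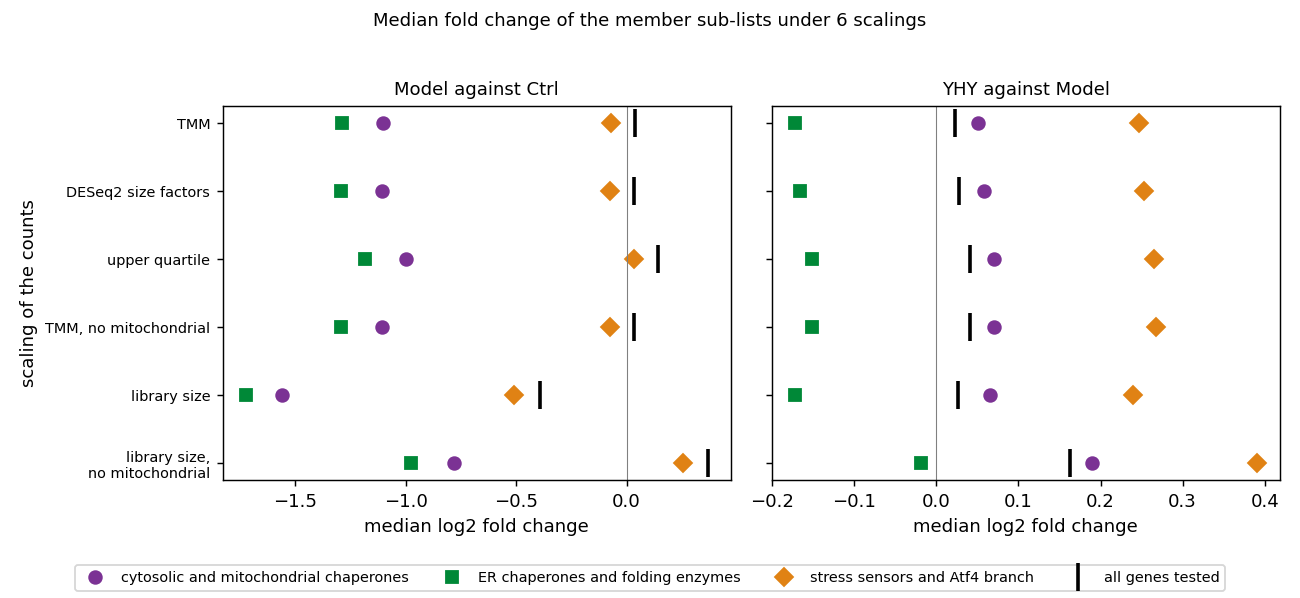
Median log2 fold change (horizontal) of the 3 member sub-lists (coloured symbols) and of all genes tested (black bars) under 6 scalings of the counts (vertical), for Model against Ctrl and YHY against Model. A scaling shifts the symbols and the bar together, so their distance is nearly fixed. In Model against Ctrl the chaperone sub-lists lie left of the bar, while the sensors and Atf4-branch median is -0.07 under TMM and changes sign to 0.03 under upper-quartile scaling and 0.26 under library size without mitochondrial transcripts.

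Among the cytosolic chaperones, Hspa1a and Hspa1b are the strongly inducible Hsp70 genes, neighbours on the - strand (chr17:35188166-35191132 and chr17:35175412-35178214, GRCm39). They are near-identical paralogs, so how reads were divided between them is uncertain. Hspa1a was at 30.7, 44.9, 150.2 and 34.8 CPM in Ctrl mice 1 to 4, at 5.99, 4.24, 3.20 and 3.68 CPM in Model mice 1 to 4, and at 14.9, 2.54, 11.2 and 4.96 CPM in YHY mice 1 to 4. Hspa1b was at 68.8, 69.2, 270.1 and 82.8 CPM in Ctrl mice 1 to 4, at 13.2, 10.2, 10.5 and 13.7 CPM in Model mice 1 to 4, and at 54.3, 6.97, 37.5 and 9.96 CPM in YHY mice 1 to 4. Ctrl 3 was far above the other Ctrl mice for both genes, all Model mice were below all Ctrl mice, and YHY 1 and YHY 3 were above the other YHY mice. In Model against Ctrl the log2 fold change was -3.92 ± 0.56 for Hspa1a (adjusted P 8.86e-05) and -3.37 ± 0.59 for Hspa1b (adjusted P 0.000391). Without Ctrl 3, these were -3.14 and -2.68.

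Hsph1, an Hsp110 chaperone that works with Hsp70 as a nucleotide exchange factor, was at 118, 60.1, 106 and 125 CPM in Ctrl mice 1 to 4, at 16.1, 21.0, 19.2 and 26.6 CPM in Model mice 1 to 4, and at 53.9, 27.0, 32.2 and 34.0 CPM in YHY mice 1 to 4. The 3 groups did not overlap, with YHY between Model and Ctrl. Its log2 fold change in Model against Ctrl was -2.31 ± 0.25 (adjusted P 1.19e-05). Hsp90aa1, the stress-inducible cytosolic Hsp90, was at 451, 388, 438 and 369 CPM in Ctrl mice 1 to 4, at 158, 108, 144 and 134 CPM in Model mice 1 to 4, and at 186, 119.6, 123 and 123 CPM in YHY mice 1 to 4. Every db/db mouse was below every Ctrl mouse, and the log2 fold change in Model against Ctrl was -1.60 ± 0.18 (adjusted P 1.43e-05). The constitutive partner Hsp90ab1 was at 811, 830.2, 854 and 840.3 CPM in Ctrl mice 1 to 4 and at 317, 222, 223 and 198 CPM in Model mice 1 to 4, groups that were far apart beside their spread, and its log2 fold change was -1.80 ± 0.17 (adjusted P 4.88e-06).

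The constitutive Hsp70 gene Hspa8 was at 1742, 2273, 2162 and 2150 CPM in Ctrl mice 1 to 4 and at 1416, 1122, 1242 and 992 CPM in Model mice 1 to 4. It was lower in every Model mouse, but by less than the inducible genes, with a log2 fold change of -0.80 ± 0.23 (adjusted P 0.0107, range -1.22 to -0.48 over the 19 alternatives), and the difference between these fold changes was not tested. Dnaja1, an Hsp40 co-chaperone of Hsp70, was at 285, 262, 312 and 254 CPM in Ctrl mice 1 to 4 and at 79.4, 59.2, 63.6 and 57.5 CPM in Model mice 1 to 4. All 4 Model values lay below the lowest Ctrl value, and the log2 fold change was -2.10 ± 0.15 (adjusted P 4.08e-07). Dnajb1, the Hsp40 partner of inducible Hsp70, ranged from 42.8 to 85.2 CPM in Ctrl and from 19.1 to 21.0 CPM in Model, and Bag3, a co-chaperone that links Hsp70 to autophagy, from 18.3 to 33.2 CPM in Ctrl and from 9.96 to 15.6 CPM in Model, so neither overlapped.

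Hspb1, a small heat shock protein, was at 20.4, 14.6, 38.8 and 24.9 CPM in Ctrl mice 1 to 4, at 17.5, 12.2, 7.49 and 10.0 CPM in Model mice 1 to 4, and at 54.6, 16.3, 31.5 and 15.8 CPM in YHY mice 1 to 4. Its Ctrl and Model values overlapped, and the log2 fold change was -1.06 ± 0.38 (adjusted P 0.0381). That call ended without Ctrl 3 (-0.80), Ctrl 4 (-1.10), Model 2 (-1.08), Model 3 (-0.90) or Model 4 (-0.99), under upper-quartile scaling (-0.96) and under library size without mitochondrial transcripts, and over all 19 alternatives the largest adjusted P was 0.141. The 3 members of this sub-list that were not called were Hspa4, an Hsp110-family gene at 102 to 117 CPM in Ctrl and 79.3 to 102 CPM in Model, Dnajb4 at 22.8 to 33.3 and 18.0 to 24.9 CPM, and Hspb8 at 3.18 to 4.87 and 4.16 to 6.08 CPM.

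Hsf1, the transcription factor of the heat shock response, was the 1 member of this sub-list that was called higher. It was at 25.5, 25.8, 21.7 and 24.6 CPM in Ctrl mice 1 to 4, at 26.3, 39.4, 32.7 and 32.9 CPM in Model mice 1 to 4, and at 30.6, 38.9, 36.8 and 29.7 CPM in YHY mice 1 to 4. Its mRNA was above the highest Ctrl value in all 8 db/db mice, by a small margin in Model 1, and the log2 fold change in Model against Ctrl was 0.43 ± 0.15 (adjusted P 0.0319), but -0.02 under library size alone. The call also ended without Ctrl 1 (0.40), Ctrl 3 (0.32), Ctrl 4 (0.38), Model 2 (0.33), Model 3 (0.43) or Model 4 (0.43), and without the filter on low counts (0.40). The activity of the Hsf1 protein was not measured.

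The mitochondrial chaperonin genes Hspd1 and Hspe1, whose products form the folding chamber and its lid, lie head to head (chr1:55116994-55127402 on the - strand and chr1:55127291-55130466 on the + strand, GRCm39). Their gene models overlap, and whether strand was used in counting is not stated. Hspd1 was at 381, 351, 432 and 315 CPM in Ctrl mice 1 to 4, at 124, 101, 115 and 102 CPM in Model mice 1 to 4, and at 37.6, 48.3, 60.4 and 73.2 CPM in YHY mice 1 to 4. Hspe1 was at 217, 254, 225 and 170.0 CPM in Ctrl mice 1 to 4, at 149, 82.1, 110.3 and 80.3 CPM in Model mice 1 to 4, and at 40.2, 43.5, 48.9 and 71.6 CPM in YHY mice 1 to 4. For each gene the 3 groups were fully separate, with Ctrl highest and YHY lowest. In Model against Ctrl the log2 fold change was -1.74 ± 0.19 for Hspd1 (adjusted P 1.30e-05) and -1.04 ± 0.22 for Hspe1 (adjusted P 0.00189).

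**Figure D3:**
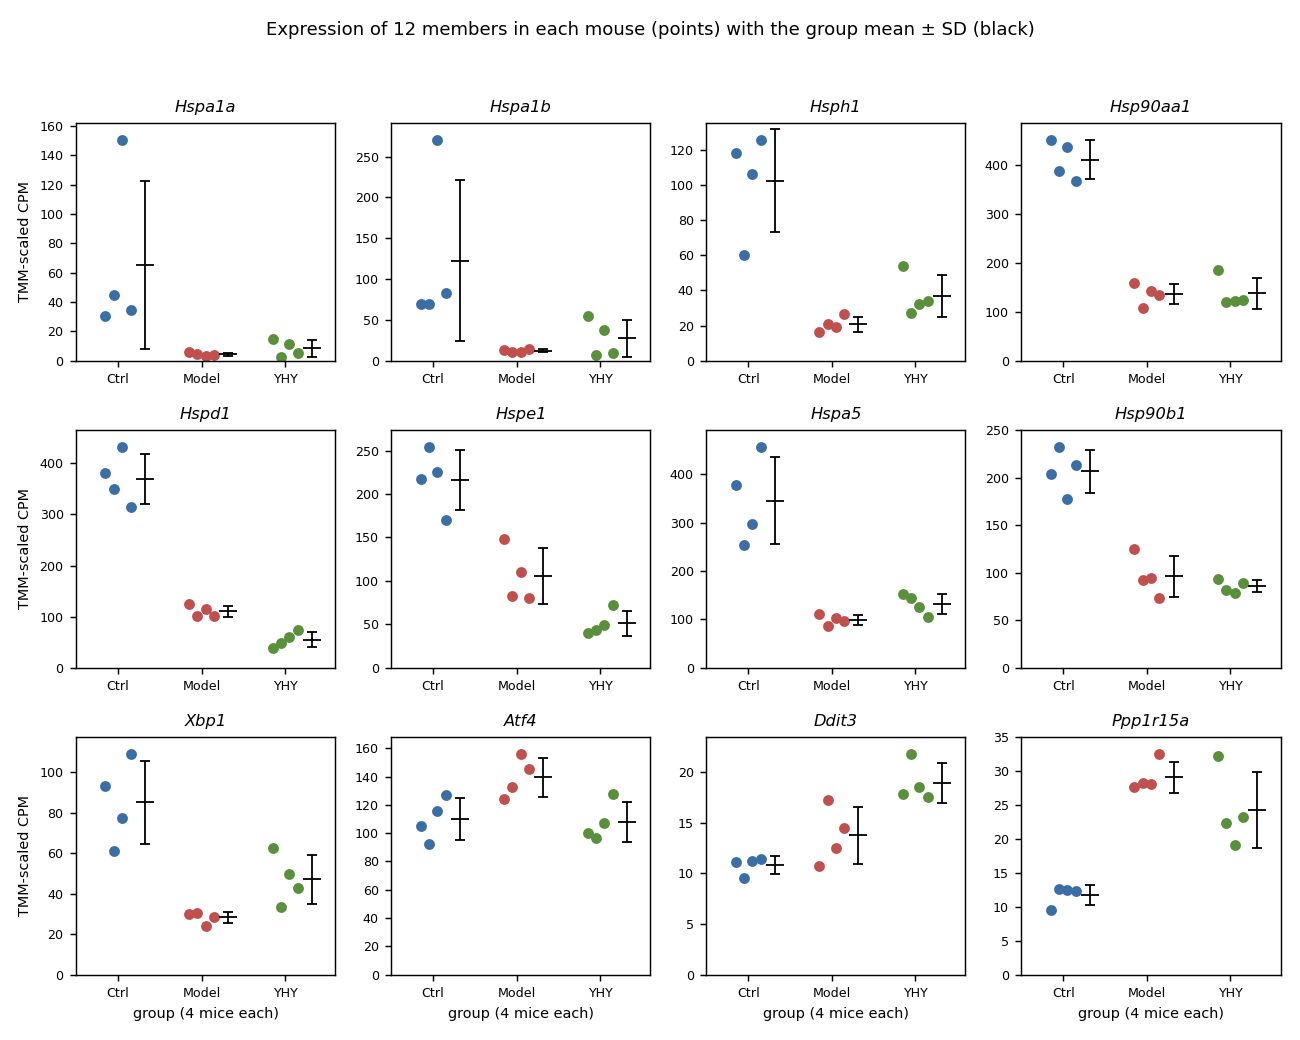
TMM-scaled CPM (vertical, from 0) of 12 members in each mouse (points, 4 per group) with the group mean and SD in black. Hspd1 and Hspe1 step down from Ctrl to Model to YHY, Ppp1r15a is at 9.53 to 12.7 CPM in Ctrl and 27.7 to 32.5 CPM in Model, and Atf4 overlaps between Ctrl and Model.

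The ER chaperones and folding enzymes were the most uniform of the 3 sub-lists in Model against Ctrl, with log2 fold changes from -1.86 to -0.55. Hspa5, the ER Hsp70 (BiP) that also holds the sensors inactive, was at 377, 254, 296 and 456 CPM in Ctrl mice 1 to 4, at 111, 86.6, 102 and 97.0 CPM in Model mice 1 to 4, and at 152, 144, 126 and 106 CPM in YHY mice 1 to 4. Ctrl 4 and Ctrl 1 were the highest, and no db/db mouse reached the lowest Ctrl mouse. Its log2 fold change in Model against Ctrl was -1.80 ± 0.19 (adjusted P 1.05e-05). Hsp90b1, the ER Hsp90 (Grp94), was at 203, 232, 178 and 214 CPM in Ctrl mice 1 to 4, at 124, 91.8, 94.2 and 73.3 CPM in Model mice 1 to 4, and at 93.8, 81.8, 78.8 and 89.2 CPM in YHY mice 1 to 4. The Ctrl mice were again separate from both db/db groups, which overlapped with each other, and the log2 fold change in Model against Ctrl was -1.11 ± 0.16 (adjusted P 0.000116).

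Canx, the membrane-bound lectin chaperone of the ER, was at 268, 227, 265 and 275 CPM in Ctrl mice 1 to 4 and at 90.7, 57.6, 70.5 and 65.5 CPM in Model mice 1 to 4. Model 1 was the highest Model mouse, and the log2 fold change was -1.86 ± 0.16 (adjusted P 1.94e-06). Pdia6, a disulfide isomerase that also binds Ern1, was at 147, 121, 126 and 152 CPM in Ctrl mice 1 to 4 and at 45.3, 37.8, 37.9 and 32.2 CPM in Model mice 1 to 4. These groups lay far apart, with a log2 fold change of -1.83 ± 0.16 (adjusted P 2.01e-06). Calr, the soluble partner of Canx, was at 601, 588, 539 and 658 CPM in Ctrl mice 1 to 4 and at 369, 231, 214 and 168 CPM in Model mice 1 to 4. Model 1 was well above the other Model mice but below all Ctrl mice, and the log2 fold change was -1.28 ± 0.21 (adjusted P 0.000268). Of the other members of this sub-list, the disulfide isomerases Pdia3, Pdia4 and P4hb, the J proteins Dnajb9, Dnajb11 and Dnajc3, the Hsp70-like Hyou1, and Sdf2l1 and Manf were all called lower with no overlap of Ctrl and Model. Creld2 was the exception, at 20.4 to 36.1 CPM in Ctrl and 11.6 to 22.2 CPM in Model, overlapping and not called.

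Within the Model group the ER members moved together by mouse. Their median log2 ratio to the Ctrl mean was -0.89 in Model 1, -1.48 in Model 2, -1.36 in Model 3 and -1.77 in Model 4. Model 1 had the highest value of the 4 Model mice in 14 of the 15 ER members and in 11 of the 17 cytosolic and mitochondrial members. Model 1 was also the Model library with the lowest mitochondrial share, 41.2%, and the part of that in its higher ER values was not tested. In Ctrl, mouse 4 was the highest in 12 of 15 ER members and mouse 3 in 9 of 17 cytosolic and mitochondrial members. The same shares over all genes were not counted. Across genes, chi-square per degree of freedom, higher where 2 libraries differ more, was 96.7 to 138.9 for pairs with Model 1. It was 21.2 to 31 for the other Model pairs. For Ctrl it was 61.61 to 110.1 in pairs with Ctrl 4 and 17.33 to 45.65 in the others. The part of these library differences was not tested. Within Ctrl, Model and YHY in turn, the median coefficient of variation was 16.4%, 15.4% and 28.0% for cytosolic and mitochondrial members, 12.2%, 19.9% and 14.0% for ER members, and 12.7%, 12.0% and 22.2% for sensors and Atf4-branch genes.

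The sensors and the Atf4 branch were mixed. Xbp1, the transcription factor whose mRNA Ern1 splices, was at 93.4, 60.9, 77.5 and 109 CPM in Ctrl mice 1 to 4, at 30.0, 30.5, 24.1 and 28.5 CPM in Model mice 1 to 4, and at 62.6, 33.4, 49.5 and 42.8 CPM in YHY mice 1 to 4. All Model mice were below all Ctrl and all YHY mice, and YHY 1 was above the lowest Ctrl mouse. Its log2 fold change in Model against Ctrl was -1.59 ± 0.20 (adjusted P 3.56e-05), and counts per gene do not separate spliced from unspliced Xbp1. Atf6, the sensor that becomes a transcription factor, was at 33.2, 29.8, 38.6 and 33.6 CPM in Ctrl mice 1 to 4, at 20.2, 13.6, 22.3 and 16.9 CPM in Model mice 1 to 4, and at 16.9, 12.7, 17.4 and 14.5 CPM in YHY mice 1 to 4. The Ctrl mice were separate from the rest, and the log2 fold change in Model against Ctrl was -0.89 ± 0.17 (adjusted P 0.000696). Edem1, which takes misfolded glycoproteins to degradation, was at 49.9, 45.7, 49.3 and 39.5 CPM in Ctrl mice 1 to 4 and at 22.5, 24.1, 24.6 and 29.7 CPM in Model mice 1 to 4, without overlap, at a log2 fold change of -0.87 ± 0.15 (adjusted P 0.000353). Sel1l, of the ER degradation complex, was the other member of this sub-list called lower, at 50.0 to 67.0 CPM in Ctrl and 39.9 to 46.1 CPM in Model.

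The other sensors were not called in Model against Ctrl. Ern1 was at 10.2, 9.21, 9.18 and 10.1 CPM in Ctrl mice 1 to 4, at 8.11, 8.19, 11.2 and 9.32 CPM in Model mice 1 to 4, and at 8.24, 5.86, 10.7 and 10.1 CPM in YHY mice 1 to 4. The groups overlapped, and its log2 fold change was -0.07 ± 0.20 (adjusted P 0.808) under TMM, -0.51 under library size alone (adjusted P 0.116), 0.03 under upper-quartile scaling and 0.26 under library size without mitochondrial transcripts. Eif2ak3, the PERK kinase, was at 16.4, 11.6, 17.8 and 20.9 CPM in Ctrl mice 1 to 4, at 14.6, 11.3, 12.9 and 11.5 CPM in Model mice 1 to 4, and at 21.2, 13.4, 14.1 and 12.4 CPM in YHY mice 1 to 4. Ctrl 2 was as low as the Model mice, and the log2 fold change was -0.40 ± 0.20 (adjusted P 0.127). It ran from -0.85 to -0.10 over the 19 alternatives. It passed the threshold without Ctrl 2 (-0.55, adjusted P 0.0420), among the 9 mice behind the authors' means, without Ctrl 2, Model 1 and YHY 4 for a reason not stated (-0.68, adjusted P 0.0163) and under library size alone (-0.85). It was closest to 0 under library size without mitochondrial transcripts (-0.10, adjusted P 0.760).

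Ppp1r15a, which encodes the phosphatase subunit Gadd34 that restores translation after Eif2ak3 has acted, was the 1 member of this sub-list called higher. It was at 9.53, 12.7, 12.5 and 12.3 CPM in Ctrl mice 1 to 4, at 27.7, 28.2, 28.0 and 32.5 CPM in Model mice 1 to 4, and at 32.2, 22.4, 19.1 and 23.2 CPM in YHY mice 1 to 4. Every db/db mouse was above every Ctrl mouse, with a log2 fold change in Model against Ctrl of 1.31 ± 0.17 (adjusted P 3.60e-05) that ran from 0.88 to 1.64 over the 19 alternatives. Atf4, the central transcription factor of this branch, was at 105, 92.3, 116 and 127 CPM in Ctrl mice 1 to 4, at 125, 133, 156 and 145 CPM in Model mice 1 to 4, and at 100.02, 96.4, 107 and 128 CPM in YHY mice 1 to 4. Ctrl 4 lay above Model 1, and the log2 fold change in Model against Ctrl was 0.34 ± 0.15 (adjusted P 0.0809) under TMM and -0.11 under library size alone. It passed the threshold with DESeq2 (0.34, adjusted P 0.0418), under upper-quartile scaling (0.45), under library size without mitochondrial transcripts (0.66) and with at least 10 counts in every mouse (0.39), with adjusted P down to 0.00393 over the 19 alternatives. Atf4 is raised mainly through translation, which RNA counts do not show.

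None of the 5 Atf4 targets and ER degradation genes that follow was called in Model against Ctrl (edgeR, 1 at an unadjusted P under 0.05 and 0 by DESeq2). Ddit3, the transcription factor Chop, was at 11.1, 9.55, 11.2 and 11.5 CPM in Ctrl mice 1 to 4, at 10.8, 17.3, 12.5 and 14.5 CPM in Model mice 1 to 4, and at 17.9, 21.8, 18.5 and 17.6 CPM in YHY mice 1 to 4. Model 1 fell within the Ctrl values, and the log2 fold change in Model against Ctrl was 0.34 ± 0.16 (adjusted P 0.105) under TMM and -0.11 under library size alone, and passed the threshold under upper-quartile scaling (0.45) and library size without mitochondrial transcripts (0.67). Trib3, a pseudokinase, was at 0.384, 1.37, 1.05 and 0.342 CPM in Ctrl mice 1 to 4, at 1.22, 0.381, 2.69 and 1.197 CPM in Model mice 1 to 4, and at 2.48, 2.87, 1.04 and 0.542 CPM in YHY mice 1 to 4. At these low counts the groups overlapped, and a log2 fold change of 0.81 ± 0.64 was not distinguishable from 0 (adjusted P 0.341). Asns, asparagine synthetase, was at 3.17, 1.40, 2.40 and 4.58 CPM in Ctrl mice 1 to 4 and at 3.83, 2.95, 3.15 and 3.59 CPM in Model mice 1 to 4. All Model values lay inside the Ctrl range, with a log2 fold change of 0.23 ± 0.36 (adjusted P 0.653) that was -0.23 under library size alone, -0.12 in the 9 mice of the authors' means and -0.002 without Ctrl 2. Chac1, which degrades glutathione, was at 0.490 to 1.71 CPM in Ctrl and 0.274 to 1.54 CPM in Model, and Herpud1, of ER degradation, at 122 to 166 and 103 to 129.7 CPM, both overlapping.

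Levels between genes were compared per kilobase of the gene length given in the files, as mean CPM per kb in Ctrl. Hspa8 was highest at 484 CPM per kb, followed by Hsp90ab1 at 278, P4hb at 211, Calr at 207, Hspe1 at 147, Hspd1 at 139.9 and Pdia3 at 131 CPM per kb. At the other end were Ern1 at 1.18, Asns at 1.06, Chac1 at 0.517 and Trib3 at 0.371 CPM per kb. In these units Hspa5 stood at 81.8 in Ctrl and 23.5 in Model, and Hspa1a at 22.0 in Ctrl, or 12.4 without Ctrl 3, and 1.44 in Model. Without Ctrl 4 the Chac1 level was 0.342 CPM per kb.

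YHY against Model addressed what the extract changed in db/db mice. Of the 45 members, 3 were called higher and 2 lower, where 5.63% of the genes tested were called higher and 7.62% lower, shares close to those of the members. The same numbers, 3 and 2, had no overlap between the 8 mice, against 6.83% and 9.28% of all genes. The members' median log2 fold change was -0.00 under TMM and ran from -0.00 to 0.16 over the 6 scalings, and that of all genes tested was 0.02. Of the 15 ER members, 0 were called in either direction by edgeR, with 1 higher and 1 lower at an unadjusted P under 0.05 and 0 by DESeq2, and their median was -0.17. The cytosolic and mitochondrial sub-list had 2 higher and 2 lower at a median of 0.05, and the sensors and Atf4 branch had 1 higher and 0 lower (edgeR, with 2 lower at an unadjusted P under 0.05 and 0 by DESeq2) at a median of 0.25. The count of members called higher was 0 without Model 3 or YHY 1 and 1 without Model 1 or Model 4, while the count called lower was 2 to 3 over the 12 omissions, with 1 ER member lower without Model 4 and 1 sensor or Atf4-branch gene lower without YHY 4.

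**Figure D4:**
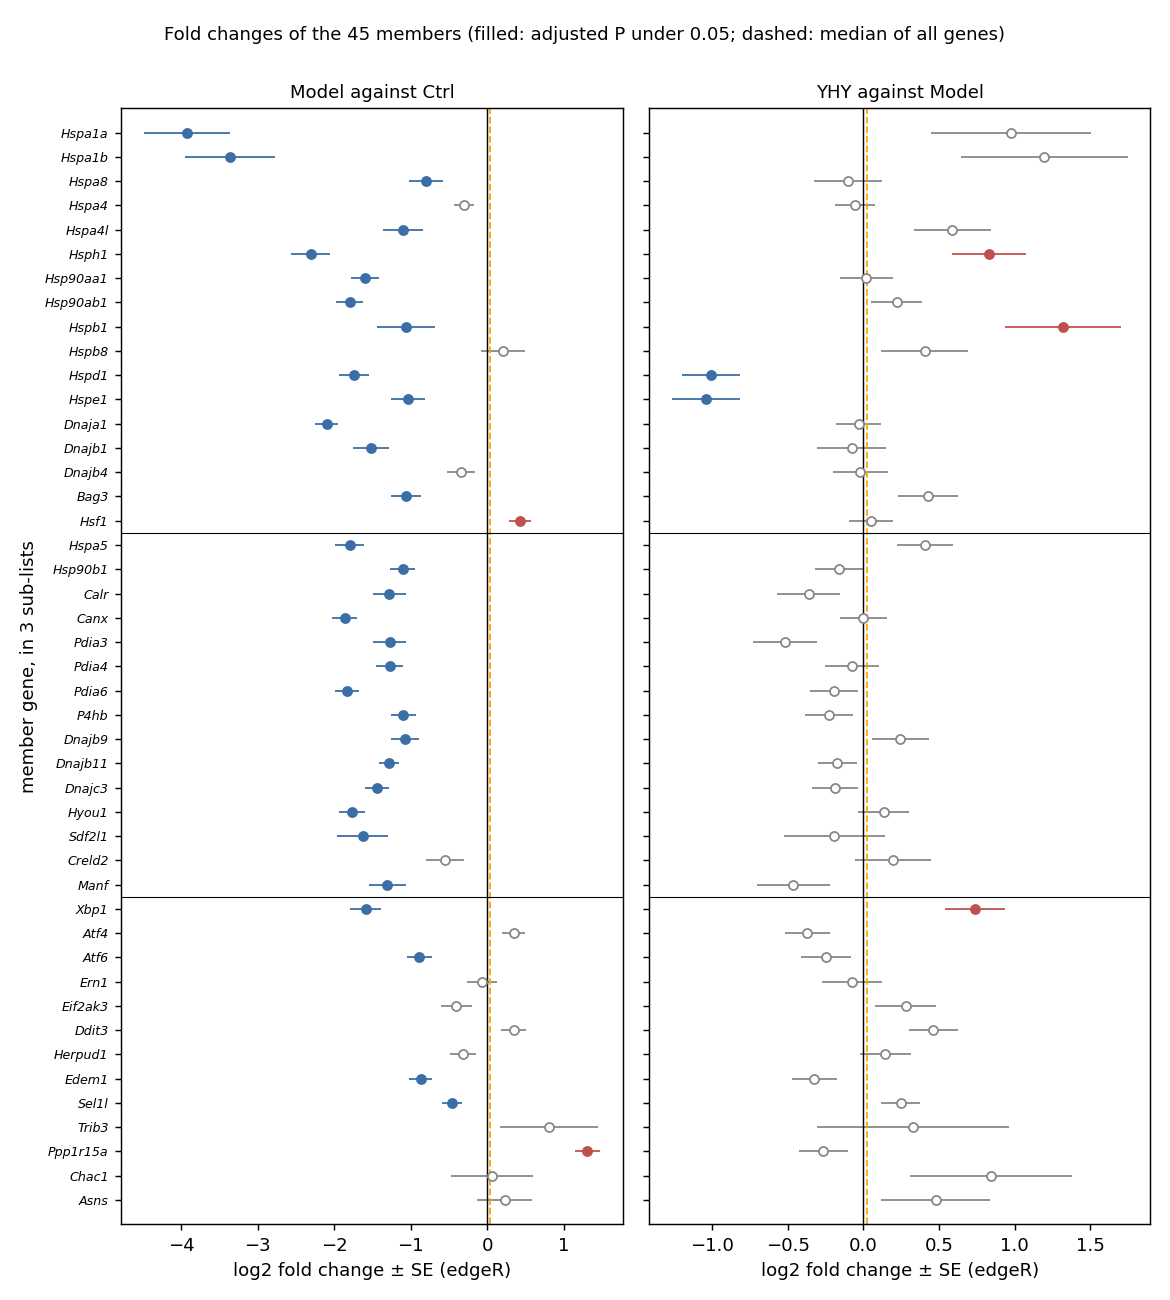
Log2 fold change ± SE (horizontal, edgeR) of the 45 members (vertical, in 3 sub-lists) in Model against Ctrl (left) and YHY against Model (right), with filled symbols at an adjusted P under 0.05, red for higher and blue for lower, and a dashed line at the median of all genes. On the left 31 members are called lower and 2 higher (Hsf1, which is -0.02 under library size alone, and Ppp1r15a), and on the right 2 are called lower and 3 higher.

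The 2 members called lower in YHY against Model were the mitochondrial chaperonin genes. The log2 fold change was -1.01 ± 0.19 for Hspd1 (adjusted P 0.00405) and -1.04 ± 0.22 for Hspe1 (adjusted P 0.00793), and the highest YHY value of each, 73.2 and 71.6 CPM in YHY 4, was below the lowest Model value. Both calls held in all 19 alternatives, with log2 fold changes from -1.18 to -0.86 for Hspd1 and from -1.26 to -0.84 for Hspe1. The promoter windows and the annotated models of these genes overlap, and whether reads were shared between them in counting was not tested. YHY 1 was the lowest and YHY 4 the highest of the YHY mice for both genes and for the summed proximal tubule markers (2147 and 5251 CPM), whereas YHY 2 and YHY 3 were in the opposite order. YHY 4, whose sum was above those of all Model mice, was below all Model mice for both genes. The part of these markers in the 2 calls was not tested.

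The 3 members called higher were Hsph1, Hspb1 and Xbp1. For Hsph1, all 4 YHY mice were above all 4 Model mice, YHY 1 was the highest at 53.9 CPM, and the log2 fold change was 0.83 ± 0.24 (adjusted P 0.0350). The call ended without Model 1 (0.73), Model 2 (0.84), Model 3 (0.79) or YHY 1 (0.59) and under library size alone (0.88), with adjusted P up to 0.112 over the 19 alternatives. Hspb1 rose with overlap between the groups, led by YHY 1 at 54.6 CPM and YHY 3 at 31.5 CPM, at a log2 fold change of 1.32 ± 0.38 (adjusted P 0.0330). Without YHY 1 it was 0.84, and its call also ended without Model 2 (1.33), Model 3 (1.15), Model 4 (1.25) or YHY 3 (1.29) and under library size alone (1.38), with adjusted P up to 0.120. Xbp1 was higher in every YHY mouse than in every Model mouse, with a log2 fold change of 0.74 ± 0.20 (adjusted P 0.0246). That call ended without Model 1 (0.78), Model 3 (0.66), Model 4 (0.74) or YHY 1 (0.57) and under library size alone (0.78), with adjusted P up to 0.0987. YHY 1 and YHY 3, the highest of the YHY mice for Xbp1 and Hspb1, also had the highest sums of plasma cell markers, 131 and 134 CPM where the Model mice had 18.5 to 29.9 CPM. YHY 4, with the lowest sum of the 12 mice at 18.3 CPM, was above all Model mice for Xbp1 as well. The part of these markers in the changes of Xbp1 and Hspb1 was not tested.

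The inducible Hsp70 genes split the YHY mice. YHY 1 and YHY 3 were above all Model mice for Hspa1a and Hspa1b, whereas YHY 2 was below all of them for both, as YHY 4 was for Hspa1b. The log2 fold change was 0.97 ± 0.53 for Hspa1a (adjusted P 0.240) and 1.197 ± 0.55 for Hspa1b (adjusted P 0.164), neither of them called, although Hspa1b passed the threshold without the filter on low counts (1.19) and the unadjusted limits of the paper. Over the 19 alternatives they ran from 0.55 to 1.41 for Hspa1a and from 0.62 to 1.56 for Hspa1b. Each was lowest without YHY 1 and highest in the 9 mice of the authors' means. Hsp90aa1 differed by 0.02 ± 0.18 (adjusted P 0.962) and by -0.16 without YHY 1 and -0.08 without Model 2. Hsf1 differed by 0.05 ± 0.15 (adjusted P 0.870), and by -0.04 without Model 1 and -0.02 without YHY 2.

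Among ER members and sensors, Hspa5 was above the highest Model value in YHY 1, YHY 2 and YHY 3 but not in YHY 4, at a log2 fold change of 0.41 ± 0.19 (adjusted P 0.164). Hsp90b1 differed by -0.16 ± 0.16 (adjusted P 0.566) and Atf6 by -0.25 ± 0.17 (adjusted P 0.356), both with overlapping groups. Ddit3 was higher in all 4 YHY mice than in all 4 Model mice (exact permutation P 0.0286), but its log2 fold change of 0.46 ± 0.16 was not called (adjusted P 0.0709). It passed the threshold without Model 2 (0.59, adjusted P 0.0381), with DESeq2 (0.47) and under library size without mitochondrial transcripts (0.59), and those are the only settings beside the unadjusted limits of the paper, of the 19, under which it did. Atf4 was lower by -0.37 ± 0.15 in log2 (adjusted P 0.110), with YHY 4 inside the Model range, and without YHY 4 it was -0.47 (adjusted P 0.0489, with adjusted P down to 0.0386 over the 19 alternatives). Ppp1r15a, at -0.27 ± 0.16 (adjusted P 0.307), had YHY 1 within the Model values and the other YHY mice below them. Eif2ak3 at 0.28 ± 0.20 (adjusted P 0.394) and Asns at 0.48 ± 0.36 (adjusted P 0.413) overlapped. Over the 19 alternatives the differences ran from -0.27 to -0.003 for Hsp90b1, from -0.37 to -0.09 for Atf6, from -0.44 to -0.12 for Ppp1r15a, from 0.08 to 0.47 for Eif2ak3 and from 0.13 to 0.70 for Asns. Ern1 differed by -0.08 ± 0.20 (adjusted P 0.850), and by 0.03 without Model 3, 0.07 without YHY 2 and 0.07 under library size without mitochondrial transcripts. Trib3 differed by 0.33 ± 0.64 (adjusted P 0.790), and by -0.02 without YHY 2.

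YHY against Ctrl shares its mice with the comparisons above, so its values are given only side by side with them. Of the 45 members, 3 were called higher and 29 lower, where 26.1% of the genes tested were called higher and 24.2% lower, and the median was -1.20 against 0.10 for all genes. The number called higher was 1 under library size alone, 4 under upper-quartile scaling, 8 under library size without mitochondrial transcripts, 2 without Ctrl 3 and 5 without Ctrl 4, and the number called lower was 25 to 34 over the 19 alternatives. Of all genes tested, 2365 of 17431, 5232 of 17431, 7440 of 16952, 3711 of 17790 and 3929 of 17767 were called higher in the same order. Under library size alone, 34 members and 5977 of all genes were lower. Under library size without mitochondrial transcripts these were 25 and 2140. The 15 ER members had 14 lower and 0 higher by edgeR (0 at an unadjusted P under 0.05 and 0 by DESeq2), with a median of -1.63 where Model against Ctrl had -1.29. For Hspd1 the log2 fold change was -2.75 ± 0.20 in YHY against Ctrl and -1.74 ± 0.19 in Model against Ctrl, and for Hspe1 -2.08 ± 0.23 and -1.04 ± 0.22. Hsph1 was -1.48 ± 0.25 in YHY against Ctrl and -2.31 ± 0.25 in Model against Ctrl, and Xbp1 -0.85 ± 0.20 and -1.59 ± 0.20. Ddit3 was called higher in YHY against Ctrl, at 0.81 ± 0.16 (adjusted P 0.000653), as were Ppp1r15a at 1.04 ± 0.17 and Hsf1 at 0.48 ± 0.15. The Hsf1 call ended without Ctrl 3 (0.36) and under library size alone (0.04), and the Ddit3 call under library size alone (0.36). The same Model mice enter both Model against Ctrl and YHY against Model, so a chance extreme in them moves both in opposite directions.

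Other genes of the pathway were counted from lists chosen by role. In Model against Ctrl, 19 of 32 other cytosolic chaperones and co-chaperones were called lower and 2 higher, 10 of 14 mitochondrial chaperones and proteases lower and 0 higher (edgeR, 0 also at an unadjusted P under 0.05 and by DESeq2), and 17 of 24 other ER folding genes lower and 2 higher. Of 19 genes of ER-associated degradation that were tested, of 20 listed, 11 were lower and 0 higher (edgeR, 0 also at an unadjusted P under 0.05 and by DESeq2), and of 30 other sensors and Atf4 targets tested, of 32 listed, 7 were lower and 5 higher. Over all genes tested the shares were 19.6% higher and 18.5% lower, which the last of these lists was close to. Cryab, a small heat shock protein, was at -2.12 in log2, the co-chaperone Dnaja4 at -1.68, the mitochondrial unfoldase Clpx at -1.34 and mitochondrial Hsp70 (Hspa9) at -1.22. The ER enzymes Tmx1 and Ppib were at -1.51 and -1.44, and Selenos and Erlec1 of ER degradation at -1.72 and -1.26. Among the Atf4 targets and kinases, the cystine transporter Slc7a11 was at 1.70, the amino acid sensor Eif2ak4 at 1.53, the initiation factor subunit Eif2s1 at -1.29 and Cth at -1.18. Fkbp14 was at 1.00, or 0.58 under library size alone. Weaker calls were Dnajb5 at 0.70, which ended without Ctrl 1 (0.62), Ctrl 3 (0.61) or Ctrl 4 (0.59) and under library size alone (0.28, adjusted P 0.372), and Fkbp2 at 0.49. The Fkbp2 call ended without Ctrl 1 (0.42), Ctrl 3 (0.45), Ctrl 4 (0.35), Model 1 (0.35) or Model 2 (0.49), without the filter (0.47) and under library size alone (0.09, adjusted P 0.738). Dnajc7 was at 0.43, and its call ended without Ctrl 1 (0.37), Ctrl 3 (0.38), Ctrl 4 (0.37), Model 2 (0.38) or Model 4 (0.39) and without the filter (0.41). It was -0.00 under library size alone.

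In YHY against Model the same lists had 3 higher and 4 lower of 32, 1 and 3 of 14, 0 and 4 of 24 (edgeR, 1 higher at an unadjusted P under 0.05 and 0 by DESeq2), 0 and 1 of 19 (edgeR, 0 higher at an unadjusted P under 0.05 and 0 by DESeq2), and 1 and 1 of 30. Over all genes tested these shares were 5.63% and 7.62%. Txndc5, an ER disulfide isomerase, fell by 0.86 on the log2 scale, Fkbp4 fell by 0.64, and Chordc1, an Hsp90 co-chaperone, was at 0.71. Each of these calls held in the 8 omissions of a Model or YHY mouse. The Fkbp4 call ended under library size alone (-0.65, adjusted P 0.0766) and in the fit of only the 8 mice compared (-0.59, adjusted P 0.0527). Cryab was at 1.84, or 1.075 without YHY 1 and 1.66 without Model 3, which both ended the call. Clpx was at 0.87, and its call ended without Model 2 (0.82) or Model 3 (0.85) and under library size alone (0.84). The calls of 7 more genes each ended without at least 1 library. Bag1 was at -0.63, or -0.61 without Model 3, -0.59 without Model 4 and -0.52 without YHY 2, and Grpel1 at -0.65, or -0.48 without Model 1, -0.68 without Model 3 and -0.53 without YHY 2. Dnaja3 was at -0.64, or -0.45 without Model 1, -0.59 without YHY 1 and -0.59 without YHY 2, Ssr3 at -0.72, or -0.57 without Model 1 and -0.72 without Model 3, and Cth at -0.69, or -0.59 without Model 1. Sesn2 was at 0.73, or 0.66 without Model 1, 0.71 without Model 3, 0.73 without Model 4, 0.48 without YHY 2 and 0.70 without YHY 4. Man1b1 was at -0.46, or -0.51 without Model 1, -0.41 without Model 2, -0.41 without Model 3, -0.49 without Model 4, -0.36 without YHY 2 and -0.45 without YHY 3. Apart from the omissions, library size alone ended the calls of Bag1 (-0.58), Grpel1 (-0.65), Dnaja3 (-0.66), Ssr3 (-0.71), Cth (-0.72) and Man1b1 (-0.42). So did the fit of only the 8 mice (-0.58, -0.60, -0.59, -0.67, -0.65 and -0.41 in the same order). Library size without mitochondrial transcripts ended those of Bag1 (-0.48), Grpel1 (-0.50), Ssr3 (-0.56) and Man1b1 (-0.31). The 9 mice of the authors' means ended those of Bag1 (-0.60), Grpel1 (-0.55), Ssr3 (-0.52) and Sesn2 (0.65). Man1b1 also lost its call under upper-quartile scaling, TMM without mitochondrial transcripts, no filter and the replicate block. It kept the call in 6 of the 19 alternatives.

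Marker genes of kidney cells were summed per mouse beside the members. As a background for the calls, 19.6% of all genes tested were higher and 18.5% lower in Model against Ctrl. These shares were 5.63% and 7.62% in YHY against Model, and 26.1% and 24.2% in YHY against Ctrl. By DESeq2, 1685 of 17431 genes were lower in YHY against Model. Under library size alone, 1547 were higher in Model against Ctrl. The 10 proximal tubule markers, led by Slc34a1, summed to 5517, 6929, 5798 and 5053 CPM in Ctrl mice 1 to 4, to 5096, 4724, 5167 and 3953 CPM in Model mice 1 to 4, and to 2147, 3927, 2588 and 5251 CPM in YHY mice 1 to 4. None of these markers was at 0 in all mice, and in Model against Ctrl 1 was called higher (Slc22a8) and 3 lower (Lrp2, Cubn and Aqp1). In YHY against Model 1 was called lower (Hnf4a, with 5 lower by DESeq2), and in YHY against Ctrl 6 were lower and 1 higher. YHY 1 and YHY 3, the YHY mice with the highest Hspa1a, Hspa1b and Hspb1, had the lowest sums of these markers. The 12 immediate early genes, led by Dusp1, summed to 142 to 191 CPM in Ctrl, 267 to 294 CPM in Model and 140 to 311 CPM in YHY, with 5 called higher and 0 lower in Model against Ctrl (edgeR, 0 lower also at an unadjusted P under 0.05 and by DESeq2), and 1 called higher under library size alone. The 7 loop and distal tubule markers, led by Slc12a1, summed to 1523 to 2376 CPM in Ctrl and 1367 to 1766 CPM in Model, with 2 called lower (Umod and Cldn16) and 1 higher (Slc12a3). In YHY their sums were 1565 to 2310 CPM, and 1 was called lower in YHY against Model. The 8 collecting duct markers, led by Aqp2, summed to 634 to 1476 CPM in Ctrl and 426 to 651 CPM in Model, with 2 of the 7 tested called lower (Aqp2 and Aqp3). In YHY their sums were 288 to 653 CPM, and 1 was called lower in YHY against Model. The 5 podocyte markers, led by Podxl, summed to 107 to 147 CPM in Ctrl and 100.2 to 249.6 CPM in Model, with 2 called higher in Model against Ctrl (Nphs1 and Synpo) and 3 higher and 1 lower in YHY against Ctrl. The 8 myeloid and lymphoid markers, led by Lyz2, summed to 124 to 184 CPM in Ctrl, 169.7 to 285 CPM in Model and 163 to 455 CPM in YHY, with 1 of the 6 tested called higher in Model against Ctrl (Cd68). The 7 plasma cell markers, led by Igkc, summed to 46.0, 53.2, 39.2 and 26.4 CPM in Ctrl mice 1 to 4, to 20.2, 18.5, 29.0 and 29.9 CPM in Model mice 1 to 4, and to 131, 36.2, 134 and 18.3 CPM in YHY mice 1 to 4. Of the 6 that were tested, 2 were called higher in YHY against Model (Igkc and Jchain) and 0 lower (edgeR, 0 lower also at an unadjusted P under 0.05 and by DESeq2). In Model against Ctrl 1 was called lower (Jchain). The sums ran from 178 to 343 CPM over the 12 mice for 5 endothelial markers, from 147 to 316 CPM for 7 stromal and smooth muscle markers. They ran from 41.8 to 89.1 CPM for 5 adipocyte markers, with overlap between the groups in all 3 lists. Of the stromal and smooth muscle markers, 2 were called higher in Model against Ctrl (Des and Pdgfrb) and 1 in YHY against Model (Myh11). The 4 adrenal markers, led by Star, summed to 1.27 to 2.06 CPM in Ctrl, 3.09 to 6.05 CPM in Model and 3.26 to 4.03 CPM in YHY, so Ctrl was below both db/db groups. Star, the 1 of them that was tested, was called higher in Model against Ctrl at a log2 fold change of 1.32 (adjusted P 0.00128). No gene of these lists was at 0 in all mice. The part of these marker levels in the results on the members was not tested.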

How the data were processed

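The deposited count table gave raw read counts per gene for 12 kidney libraries, made by the authors with tools that their notes name as Trimmomatic 0.39, HISAT2 2.2.1 and featureCounts 2.0.1 on build GRCm39 (mm39). The annotation release and the use of strand in counting are not given. Counts were scaled by TMM, filtered with filterByExpr and fitted in 1 model of the 3 groups with the edgeR quasi-likelihood test (edgeR 4.0.16, limma 3.58.1, R 4.3.3 and version 1.17.8 of data.table), two-sided, with Benjamini-Hochberg adjustment over 17431 genes and calls at an adjusted P under 0.05. An exact two-sided permutation test of mean CPM was run for single members. Total counts of 24415658 to 33276634 per library set the precision, and intervals cover counting error only. Entries without a symbol, 480 of 57490, were kept in the fit. The pipeline was tested on simulated data. Replicate libraries were compared by chi-square per degree of freedom, which was 17.33 to 138.9 over 18 pairs within groups, so none were duplicates.

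Alternatives were DESeq2 (1.42.0) with its size factors, upper-quartile scaling, library size alone, TMM and library size without mitochondrial transcripts, no filter, at least 10 counts in every mouse, the 8 mice compared, the 9 mice of the authors' means, replicate number as a block, omission of single mice, and the paper's limits (fold over 1.2, unadjusted P under 0.05). Members and lists were chosen with earlier results of these data known. In each sub-list of members and in Model against Ctrl and YHY against Model, up to 3 higher and 3 lower members with the largest fold change among those called were named, up to 2 of each in the other lists of the pathway, and a fixed set of well-known pathway genes in any case. Hspb1, Hsp90ab1, Hspa8, Dnaja1 and Calr in Model against Ctrl, and Ppp1r15a in YHY against Model, were added after their values were seen. Promoter windows came from RefSeq (GRCm38.p6) and were matched by symbol with Python 3.11.15 and pandas 2.3.3, and figures were drawn with matplotlib 3.10.9. The authors' comparison tables, with 12 columns of values per mouse, fold changes and p values, were used only to see which 9 mice their means hold (without Ctrl 2, Model 1 and YHY 4, for a reason not stated). Their enrichment tables were not used.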

Additional observations from a re-analysis of the deposited data

Results flagged for a closer look

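A gap test (Dixon) compared the highest and the lowest of the 4 mice of each group with the others, for each member in each group. Of 135 groups tested, 10 passed the test's 95% critical value, and chance passes about 1 in 20 groups. In Ctrl 3, Hspa1a was at 150.2 CPM, where the other Ctrl mice were at 30.74 to 44.9 CPM, and Hspa1b at 270.1 CPM, where they were at 68.83 to 82.76 CPM. In Ctrl 4, Pdia4 was high at 101.7 CPM (others 76.15 to 78.61 CPM), P4hb low at 522.0 CPM (others 622.6 to 640.8 CPM) and Chac1 high at 1.708 CPM (others 0.4898 to 0.6865 CPM). Ppp1r15a was low in Ctrl 1 at 9.534 CPM (others 12.34 to 12.67 CPM) and high in Model 4 at 32.49 CPM (others 27.72 to 28.2 CPM). In the YHY group, Hsp90aa1 was high in YHY 1 at 186.1 CPM (others 119.6 to 123.2 CPM), and YHY 2 was low for Dnajb4 at 13.99 CPM (others 22.67 to 23.79 CPM) and for Sdf2l1 at 2.046 CPM (others 4.007 to 4.169 CPM).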

How the results depend on the processing

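Over the 19 alternatives, the members called lower in Model against Ctrl numbered 29 to 36, and the ER members called lower 14 to 15. Of all genes tested, 1597 to 5667 were called lower over the same alternatives. The cause of the changes that follow was not tested. Under DESeq2, the sensors and Atf4-branch genes called higher were 2 in Model against Ctrl, and 2 for YHY against Model (1 and 1 in edgeR). All genes called higher by DESeq2 numbered 3741 and 1435 of 17431. Under upper-quartile scaling, 4 members and 3 sensors and Atf4-branch genes were higher in Model against Ctrl and 2 cytosolic and mitochondrial members in YHY against Ctrl. All genes higher in these 2 comparisons were 4025 and 5232 of 17431. Under library size alone, the members called higher were 1 in Model against Ctrl, 0 in YHY against Model and 1 in YHY against Ctrl, the cytosolic and mitochondrial ones 0, 0 and 0, and the sensors and Atf4-branch genes 0 in YHY against Model and 1 (with 5 lower) in YHY against Ctrl. Higher among all 17431 genes were 1547, 491 and 2365 in these 3 comparisons, with 5977 lower in YHY against Ctrl. Under library size without mitochondrial transcripts, chosen after seeing the data, 4 members were higher in Model against Ctrl (3 of them sensors and Atf4-branch genes), 2 sensors and Atf4-branch genes in YHY against Model, and 8 members in YHY against Ctrl (2 cytosolic and mitochondrial, 6 sensors and Atf4 branch). Among all 16952 genes of this setting, 5584, 1514 and 7440 were higher in the same comparisons. Without a filter, 1 member was higher in Model against Ctrl and 0 cytosolic and mitochondrial ones, and with at least 10 counts in every mouse 2 sensors and Atf4-branch genes were. All genes higher were 3212 of 30103 without a filter and 3088 of 13623 with that minimum. With the paper's limits, 4 members (3 sensors and Atf4 branch) were higher in Model against Ctrl, while for YHY against Model 8 were higher (5 cytosolic and mitochondrial, 1 ER, 2 sensors and Atf4 branch) and 5 lower (1 ER, 2 sensors and Atf4 branch). Over all 17431 genes tested, these limits gave 4266 higher and 3912 lower in Model against Ctrl, and 2429 and 2559 in YHY against Model. In the 9 mice of the authors' means, 1 sensor or Atf4-branch gene was lower in YHY against Model, as were 1273 of all 17414 genes. Leaving out 1 mouse at a time, the members called higher were 1 to 2 in Model against Ctrl, 0 to 3 in YHY against Model and 2 to 5 in YHY against Ctrl, the cytosolic and mitochondrial ones 0 to 1, 0 to 2 and 0 to 2, and the sensors and Atf4-branch genes 0 to 2 in YHY against Model and 2 to 4 in YHY against Ctrl, while in YHY against Model 0 to 1 ER members and 0 to 1 sensors and Atf4-branch genes were lower. The replicate block, for numbers that share only a name across groups (r of same-numbered deviations -0.17 to 0.12), gave 2 higher and 31 lower for Model against Ctrl and 3 higher and 2 lower in YHY against Model. With this block, 3212 of all 17431 genes were higher and 3077 lower in Model against Ctrl, and 793 and 1127 in YHY against Model. Directions of the log2 fold change in Model against Ctrl reversed for Ern1 under upper-quartile scaling (0.034) and library size without mitochondrial transcripts (0.26), for Atf4 (-0.11), Dnajc7 (-0.0001), Hsf1 (-0.021), Ddit3 (-0.11) and Asns (-0.23) under library size alone, and for Asns in the 9 mice (-0.12) and without Ctrl 2 (-0.002, in a range of -0.002 to 0.49 over single omissions). In YHY against Model they reversed for Ern1 under library size without mitochondrial transcripts (0.068), without Model 3 (0.03) and without YHY 2 (0.0685, range -0.19 to 0.0685), Hsf1 without Model 1 (-0.0415) and YHY 2 (-0.021, range -0.0415 to 0.15), Hsp90aa1 without Model 2 (-0.08) and YHY 1 (-0.16, range -0.16 to 0.11), and Trib3 without YHY 2 (-0.021, range -0.021 to 0.87). Counts as low as 6 for Chac1 and 8 for Trib3 limit what could be detected for these genes.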
